A study of Mus musculus with 2 samples.

Results

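To describe the enzymes that make the substrate of Ahcy, 47 S-adenosylmethionine (SAM)-dependent methyltransferase genes were followed among the 31053 genes counted in single cells of the proximal small intestine. The genes were taken by symbol, and all 47 were listed for both libraries. They comprise 3 DNA methyltransferases, 7 protein arginine methyltransferases, 23 histone or protein lysine methyltransferases, 7 RNA methyltransferases and 7 enzymes that act on small molecules or protein ends. Both libraries came from VilCreER Apc fl/fl (APC) mice that received 2 doses of 2 mg tamoxifen 24 h apart and were sampled at day 4, with no age given. There was no wild-type or undosed library, so every comparison is between cell classes of the same APC mice. The villin promoter drives Cre in intestinal epithelium, so the floxed Apc alleles were a target in epithelial cells and not in the leukocytes that filled most of both libraries. Cells were sorted with DAPI to remove dead cells and counted by unique molecular identifiers (UMIs) from the 3′ end of transcripts (10x 3′ v3).

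Methyltransferases move a methyl group from SAM to DNA, to lysine or arginine residues, to RNA or to a small molecule, and release S-adenosylhomocysteine (SAH). SAH inhibits most of these enzymes, and Ahcy is the hydrolase that removes it. In the gut, crypts hold the dividing stem and progenitor cells, in which DNA and histone marks are copied at each division, and the villi hold the differentiated enterocytes that absorb nutrients.

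After filters on genes, UMIs, mitochondrial and haemoglobin content, there remained 7941 cells and 81060645 UMIs in mouse 1 and 6957 cells and 35474260 UMIs in mouse 2. Of the cell barcodes, 24 occurred in both libraries, and 16 of these were kept in both. The crypt-like class held 114 and 29 cells in the 2 mice and counted 14 of 16 stem and 16 of 16 transit-amplifying markers. The enterocyte-like class held 677 and 166 cells. The leukocyte-like classes were T-cell- or innate-lymphoid-like (T/ILC-like, 3014 and 5234 cells), plasma-cell-like (2225 and 609), macrophage- or monocyte-like (619 and 464), B-cell-like (434 and 97) and dendritic-cell-like (221 and 157). Libraries differed in make-up: T/ILC-like cells were 37.95% of the kept cells in mouse 1 and 75.2% in mouse 2, and 200 pancreatic acinar-like cells were found in mouse 1 alone. Levels are given as CPM, the UMIs of a gene summed over the cells of a class in 1 mouse and scaled by all UMIs of that sum, so the share of RNA taken by other genes enters every value. Apc, the targeted gene, was at 56.2 and 70.1 CPM in crypt-like, 77.7 and 51.7 CPM in enterocyte-like and 55.8 and 50.8 CPM in T/ILC-like cells. Counts from the 3′ end do not show whether the floxed alleles were recombined, so deletion was not checked here. In plasma-cell-like cells the 12 plasma cell marker genes, immunoglobulin genes among them, took 636300 and 667700 CPM.

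The 47 genes were sparse. Their UMIs over all cells of both libraries ran from 2 for Nnmt to 20756 for Kmt2e, with a median of 2253. Levels of most members were close between the mice within a class, while classes differed (see the map of levels by class and mouse). Among the crypt-like, enterocyte-like and 5 leukocyte-like classes, 18 members had their highest CPM in T/ILC-like cells in both mice, 14 in crypt-like cells, 2 in enterocyte-like cells (Trdmt1 and Tpmt), 2 in macrophage- or monocyte-like cells (Hnmt and Gamt) and 1 in dendritic-cell-like cells (Setdb1). The highest class differed between the mice for the other 10. The same count was not made over all genes, so it does not show a trait of the members. Plasma cell markers took 636300 and 667700 CPM in plasma-cell-like and 254200 and 156600 CPM in B-cell-like cells. This lowers the CPM of other genes in these 2 classes, where no member was highest in both mice. Tuft-like, mixed secretory and neutrophil-like sums were left out of this order, and some members were higher there, such as Kmt2b in tuft-like cells at 124 and 180 CPM (7 and 8 UMIs) against 64.4 and 59.2 CPM in T/ILC-like cells. The members highest in T/ILC-like cells were mostly lysine methyltransferases, and those highest in crypt-like cells included Dnmt1, Prmt1, Prmt5, Ezh2, Suv39h1 and Nsun2.

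**Figure D1:**
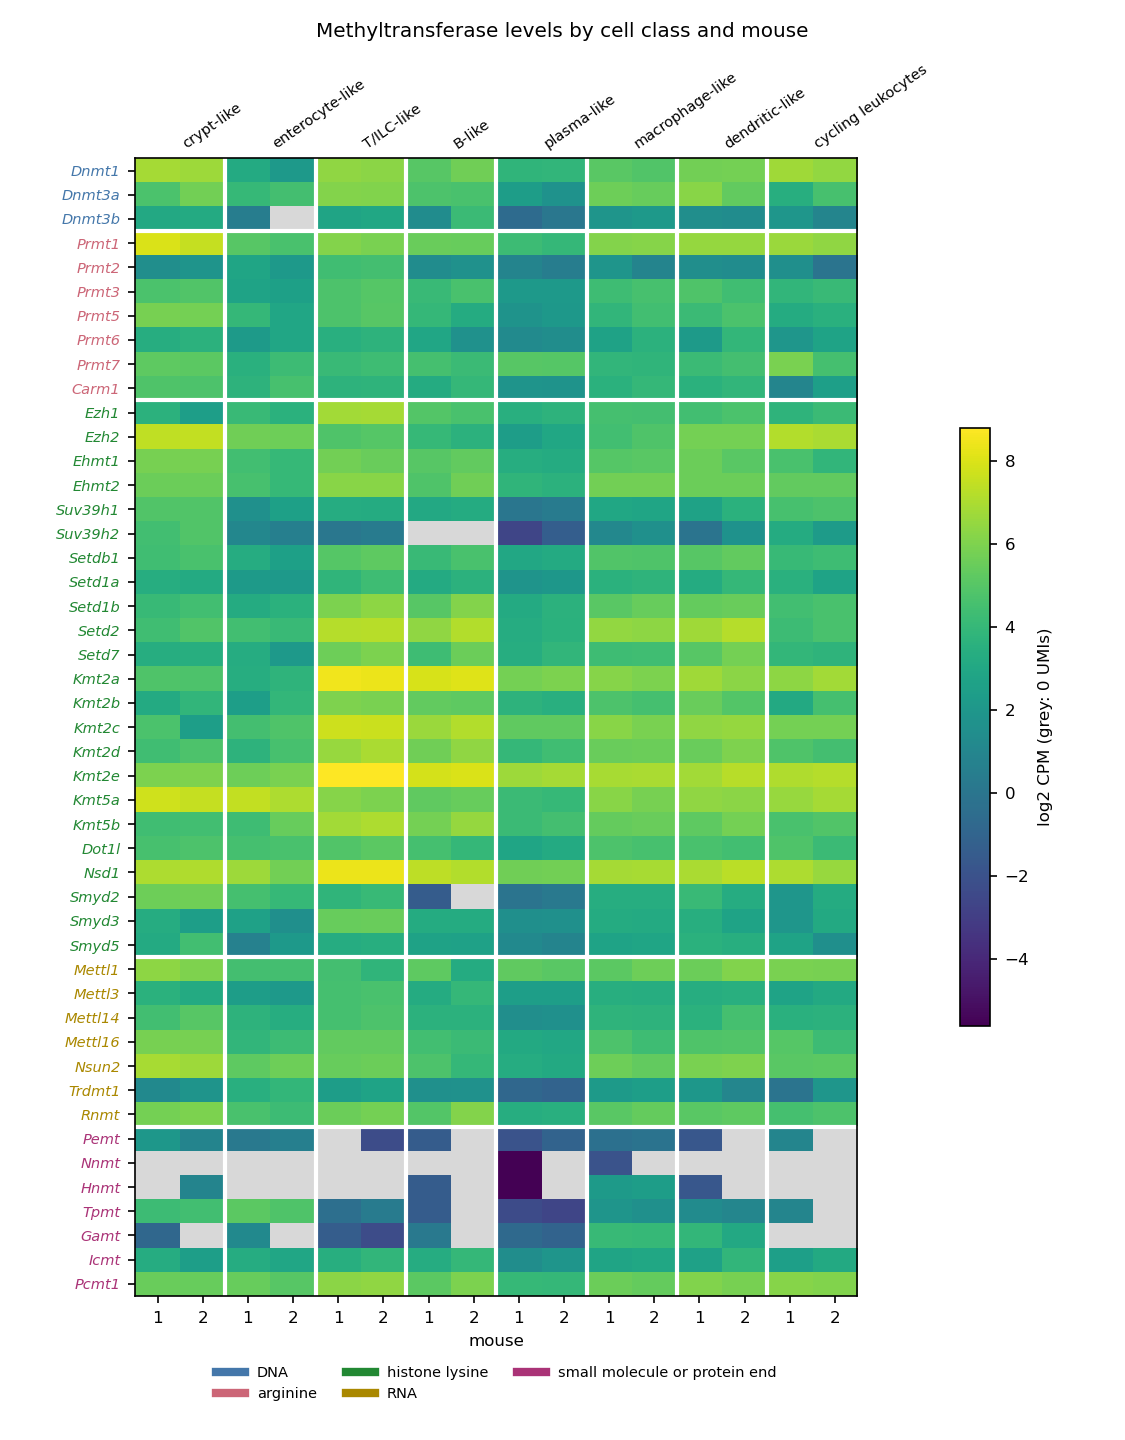
Each row is a methyltransferase gene, coloured by the substrate of its enzyme, and each pair of columns a cell class in mouse 1 and mouse 2. Colour gives log2 CPM and grey marks 0 UMIs; Dnmt1, at 115 and 101 CPM in crypt-like and 8.99 and 4.44 CPM in enterocyte-like cells, changes colour between the first 2 classes, and the Kmt2 genes are brighter in T/ILC-like than in crypt-like or enterocyte-like cells.

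The first comparison asked which methyltransferases differ between the crypt-like and the enterocyte-like cells of tamoxifen-dosed APC mice. Of the 46 members tested (Nnmt did not pass the filter on low counts), 19 were higher in crypt-like cells, against 16.9% of all 12626 genes tested, and 2 were lower, against 17.4% (edgeR quasi-likelihood test on sums per mouse and class, Benjamini-Hochberg adjusted p under 0.05). The median log2 fold was 0.83 over the members and 0.00 over all genes. Higher members numbered 2 of 3 for DNA, 4 of 7 for arginine, 9 of 23 for lysine and 4 of 7 for RNA. Of the 6 small-molecule or protein-end members tested none was higher, and Tpmt alone was lower, a share near that of all genes. Median UMIs per cell were 12119 and 18151 in crypt-like and 4236 and 2457.5 in enterocyte-like cells.

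Dnmt1, which copies DNA methylation after replication, was at 115 and 101 CPM in crypt-like cells, against 8.99 and 4.44 CPM in enterocyte-like cells. The 4 values did not overlap between the classes, and the log2 fold was 3.53 ± 0.32 (SE; edgeR adjusted p = 2.464e-06). Dnmt3b, a de novo DNA methyltransferase, was at 8.51 and 8.99 CPM in crypt-like cells and rested on few molecules in enterocyte-like cells, with 6 UMIs (1.38 CPM) in mouse 1 and 0 in mouse 2. Its log2 fold was 2.63 ± 0.77 (edgeR adjusted p = 0.0147). Dnmt3a, the other de novo enzyme, had a log2 fold of 0.73 ± 0.46 that did not pass the test (edgeR adjusted p = 0.245), with 25.5 and 52.1 CPM in crypt-like and 16.6 and 22.2 CPM in enterocyte-like cells.

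The promoters of Dnmt1 and Ezh2 are printed because these 2 genes alone, of the 38 members with a RefSeq promoter window, held the letters TTTCGCGC or TTTGGCGC on either strand. E2F factors, which control genes of DNA replication, are known to bind sites of this form. In all, 0.813% of 32851 RefSeq windows of 300 bases (250 before and 50 after a transcript start, GRCm38.p6) held these letters, and 4.08% of the 49 windows of the members did. The Dnmt1 window (chr9:20952574-20952873, minus strand) is 1 of 3 for that gene and has matches that begin at -219 and 33 from its transcript start. The annotated Dnmt1 gene begins at 20959888 on this strand, upstream of the window, so this start is not its outermost. The Ezh2 window (chr6:47594981-47595280, minus strand) has 1 match that begins at 3. Capitals mark the matches, and no match overlapped another motif searched.

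Dnmt1: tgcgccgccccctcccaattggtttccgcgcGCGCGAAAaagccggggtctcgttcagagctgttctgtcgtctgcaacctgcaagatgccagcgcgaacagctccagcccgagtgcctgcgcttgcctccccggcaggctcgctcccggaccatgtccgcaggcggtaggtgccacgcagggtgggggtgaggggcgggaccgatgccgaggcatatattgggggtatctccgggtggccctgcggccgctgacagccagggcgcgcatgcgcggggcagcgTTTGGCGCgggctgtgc
Ezh2: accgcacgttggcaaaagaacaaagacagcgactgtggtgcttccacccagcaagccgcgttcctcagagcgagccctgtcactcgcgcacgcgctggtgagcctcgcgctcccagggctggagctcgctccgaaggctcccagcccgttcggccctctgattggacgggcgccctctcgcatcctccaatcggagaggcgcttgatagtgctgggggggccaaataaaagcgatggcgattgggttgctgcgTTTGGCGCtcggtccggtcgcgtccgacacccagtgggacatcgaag

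Among the arginine enzymes, Prmt1, which makes most asymmetric dimethylarginine, stood at 248.5 and 185 CPM in crypt-like cells, against 32.3 and 25.1 CPM in enterocyte-like cells. Its log2 folds in the single mice, 2.66 and 2.71, were close to each other and to the fitted value of 2.64 ± 0.30 (edgeR adjusted p = 1.178e-05). Prmt5, the main symmetric arginine methyltransferase, was at 57.3 and 53.95 CPM against 15.4 and 7.39 CPM, a log2 fold of 1.83 ± 0.34. Prmt3, which methylates a small-subunit ribosomal protein, was at 25.5 and 28.8 CPM against 6.68 and 5.91 CPM, a log2 fold of 1.77 ± 0.36. For these 3 genes both crypt-like values lay above both enterocyte-like values. Prmt7, which adds single methyl groups to arginine, was at 36.9 and 35.97 CPM against 11.3 and 19.2 CPM. Its log2 fold of 1.18 ± 0.42 was the smallest of the 4 (edgeR adjusted p = 0.0381), and it no longer passed without the filter on low counts or with the highest doublet scores removed (highest edgeR adjusted p = 0.079). Prmt2, Prmt6 and Carm1 did not pass the test; Prmt2 was the 1 arginine member with a negative log2 fold, -1.33 ± 0.67.

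Of the members higher in crypt-like cells, Prmt1, Prmt3, Ehmt2 and Mettl1 held the E-box letters CACGTG, a form that Myc is known to bind. Promoters are shown for Prmt1, which had the largest fold of these, and for Mettl1, the RNA enzyme among them. On either strand these letters were in 7.15% of all windows and in 12.2% of the members' 49 windows, those of Dnmt3a, Prmt1, Prmt3, Ehmt2 and Mettl1. The match begins at -181 in Prmt1 (chr7:44986371-44986670, minus strand) and at 30 in Mettl1 (chr10:127041682-127041981, plus strand). The letters TTTGAA (cell-cycle homology region) were in 17.9% of all windows and in 10.2% of the members', and CCAAT in 37.4% and 34.7%.

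Prmt1: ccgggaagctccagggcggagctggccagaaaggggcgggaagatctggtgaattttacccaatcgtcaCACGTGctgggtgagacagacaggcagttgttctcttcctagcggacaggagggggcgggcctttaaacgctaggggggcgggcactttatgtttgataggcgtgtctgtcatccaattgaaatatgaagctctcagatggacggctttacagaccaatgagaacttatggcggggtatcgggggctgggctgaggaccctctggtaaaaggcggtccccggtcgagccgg
Mettl1: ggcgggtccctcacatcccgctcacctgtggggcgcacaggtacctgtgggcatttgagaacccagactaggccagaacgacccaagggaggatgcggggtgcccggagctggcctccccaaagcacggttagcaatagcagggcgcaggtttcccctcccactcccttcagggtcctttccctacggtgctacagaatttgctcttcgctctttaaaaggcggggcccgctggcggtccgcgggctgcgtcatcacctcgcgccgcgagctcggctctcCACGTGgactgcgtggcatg

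The largest log2 folds among the lysine members were those of Suv39h2 and Suv39h1. Suv39h1 and Suv39h2 trimethylate histone H3 in silent chromatin. Suv39h2 was at 21.6 and 28.8 CPM in crypt-like cells, against 2.07 and 1.48 CPM (9 and 1 UMIs) in enterocyte-like cells, a log2 fold of 3.37 ± 0.65 (edgeR adjusted p = 0.000983). Suv39h1 was at 28.9 and 28.8 CPM against 2.996 and 5.91 CPM, a log2 fold of 2.74 ± 0.45 (edgeR adjusted p = 0.00027). Both crypt-like values of each gene exceeded both enterocyte-like values. Setdb1, which silences transposons through the same residue, was at 21.0 and 25.2 CPM against 9.68 and 5.91 CPM, a log2 fold of 1.10 ± 0.33. Ehmt1 and Ehmt2, partners that add the lower methylation states there, had log2 folds of 1.28 ± 0.30 and 0.86 ± 0.29. Ehmt1 was at 56.7 and 55.8 CPM against 21.2 and 16.3 CPM, and Ehmt2 at 45.96 and 46.8 CPM against 24.2 and 16.3 CPM. The call for Ehmt2 had little margin, as it did not pass in 4 alternative settings (highest edgeR adjusted p = 0.31), and Setdb1 did not pass in 2 (highest edgeR adjusted p = 0.173).

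Ezh2, the catalytic subunit of Polycomb repressive complex 2, was at 171 and 178 CPM in crypt-like cells, against 50.5 and 48.8 CPM in enterocyte-like cells. The log2 fold was 1.57 ± 0.27 (edgeR adjusted p = 0.00032), with 1.48 and 1.70 in the single mice. Its paralog Ezh1 had a log2 fold of -0.88 ± 0.48 that did not pass (edgeR adjusted p = 0.173), with 12.5 and 5.39 CPM against 17.7 and 11.8 CPM. Smyd5, a SET- and MYND-domain protein, was at 9.08 and 21.6 CPM against 1.61 and 4.44 CPM (log2 fold 2.38 ± 0.60), and Smyd2, which methylates histones and other proteins, at 49.4 and 50.35 CPM against 23.3 and 16.3 CPM (0.99 ± 0.33). Kmt2a, a histone H3 lysine 4 methyltransferase (MLL1), was at 28.4 and 26.97 CPM against 10.4 and 13.3 CPM (1.06 ± 0.34). Without the filter on low counts Smyd2 and Kmt2a did not pass (edgeR adjusted p = 0.159 and 0.194), and Kmt2a did not with the highest doublet scores removed (edgeR adjusted p = 0.113). The remaining 14 lysine members did not pass the test, and Kmt2e, Setd2 and Setd7 had log2 folds of 0.00 ± 0.27, -0.01 ± 0.27 and 0.03 ± 0.51.

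RNA methyltransferases that modify tRNA, the mRNA cap or spliceosomal RNA were mostly higher in crypt-like cells. Mettl16, which methylates a spliceosomal RNA and the Mat2a transcript, was at 57.3 and 55.8 CPM against 14.3 and 19.2 CPM (log2 fold 1.60 ± 0.30). Mettl1, which adds methylguanosine to tRNA, was at 82.3 and 64.7 CPM against 22.1 and 22.2 CPM (1.51 ± 0.44). Nsun2, a cytosine methyltransferase of tRNA, was at 119.7 and 102.5 CPM against 36.9 and 48.8 CPM (1.199 ± 0.30), and Rnmt, which methylates the mRNA cap, at 54.5 and 61.1 CPM against 24.9 and 19.2 CPM (1.07 ± 0.31). The edgeR adjusted p-values of the 4 ran from 0.000643 to 0.0139, and Rnmt did not pass without the filter on low counts (0.0994). Mettl3 and Mettl14, the subunits of the mRNA adenosine methyltransferase, had log2 folds of 0.84 ± 0.39 and 0.80 ± 0.37 that missed the threshold (edgeR adjusted p = 0.113 and 0.112).

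Trdmt1 and Tpmt were the 2 members lower in crypt-like cells. Trdmt1, a tRNA cytosine methyltransferase related to the DNA enzymes, was at 2.27 and 3.60 CPM (4 and 2 UMIs) in crypt-like cells, against 10.8 and 14.8 CPM (47 and 10 UMIs) in enterocyte-like cells, a log2 fold of -2.42 ± 0.59 (edgeR adjusted p = 0.00484). Tpmt, which methylates thiopurine drugs, was at 18.7 and 21.6 CPM against 35.5 and 28.1 CPM, a log2 fold of -0.96 ± 0.35 (edgeR adjusted p = 0.0443). In a fit of these 2 classes alone, Tpmt did not pass (edgeR adjusted p = 0.0556). Pcmt1, which repairs aged proteins, and Icmt, which caps prenylated proteins, had log2 folds of -0.09 ± 0.32 and -0.40 ± 0.50. Hnmt, Gamt and Pemt had at most 10 UMIs in either class of either mouse.

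**Figure D2:**
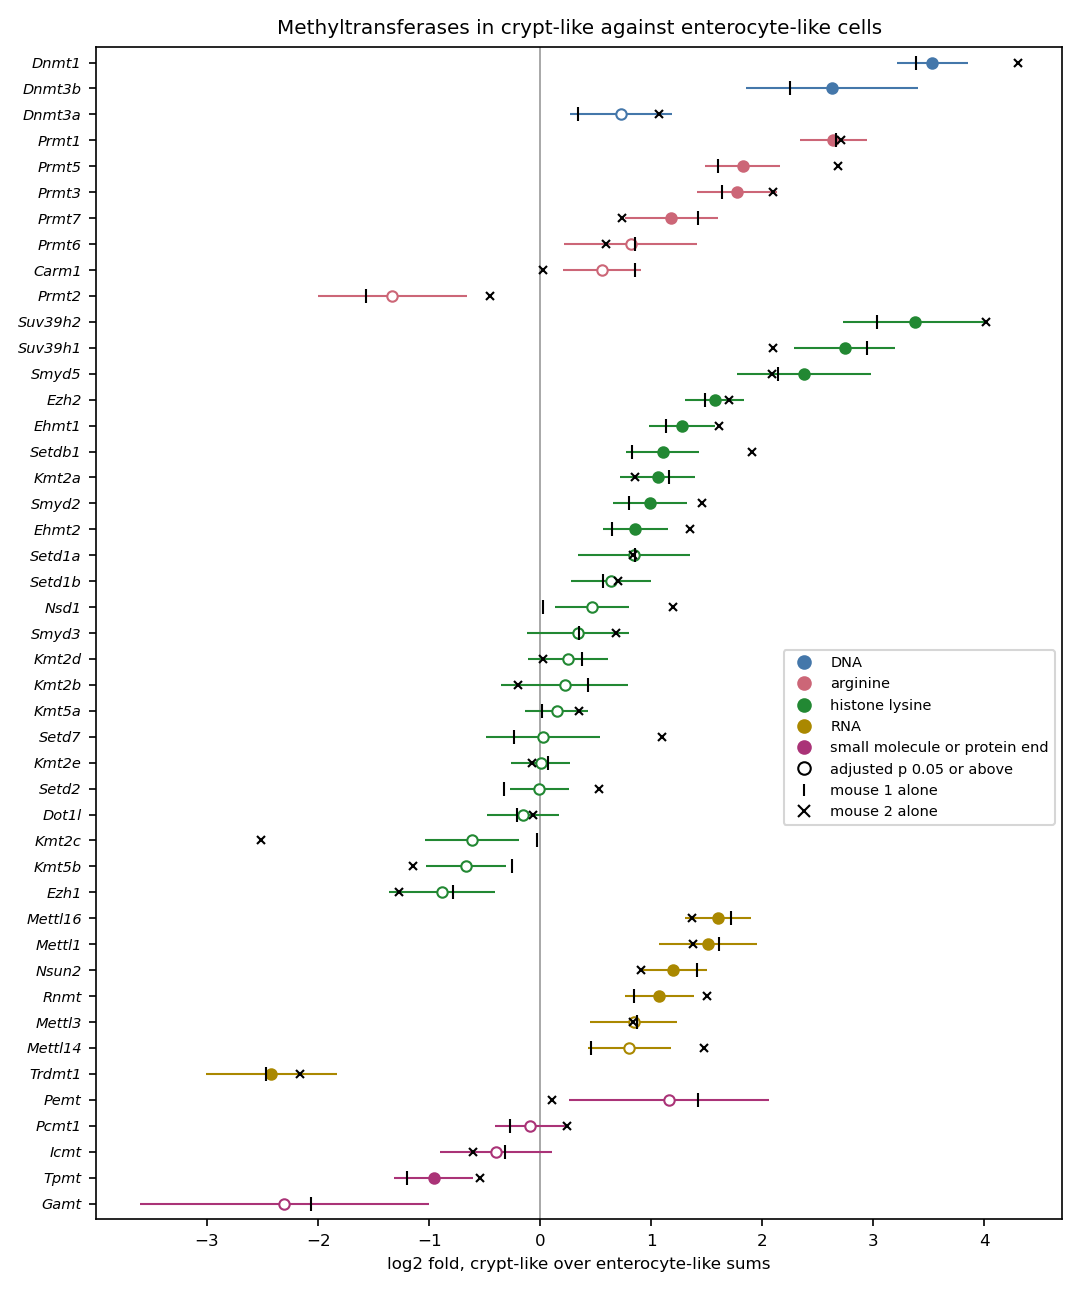
Points give the log2 fold of crypt-like over enterocyte-like sums for members with UMIs in both classes, bars its standard error, and ticks and crosses the ratio in mouse 1 and mouse 2 alone where that mouse had UMIs in both classes. Filled points passed the test; the members furthest to the right are Dnmt1 (3.53) and Suv39h2 (3.37), and Trdmt1 (-2.42) is the filled point furthest to the left.

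Markers of other cells were measured in the same sums. The T/ILC markers summed to 433 and 543 CPM in crypt-like and 105 and 185 CPM in enterocyte-like cells, and Ptprc was at 20.4 and 46.8 CPM against 12.45 and 7.39 CPM. Plasma cell markers summed to 18300 and 1054 CPM against 20460 and 2980 CPM, and pancreatic acinar markers to 782 and 25.2 CPM against 1785 and 79.8 CPM. Their part in the differences was not tested. Mki67, a marker of dividing cells, was at 106 and 131 CPM against 6.22 and 10.35 CPM. At least 3 UMIs of 15 cycling genes were held by 103 of 114 and 29 of 29 crypt-like cells, against 22 of 677 and 7 of 166 enterocyte-like cells. Mki67 is among the markers used to name classes, and cycling genes were kept in the clustering. These values are therefore not independent of how the classes were drawn. The cut of 3 UMIs was not scaled to depth, and crypt-like cells held more UMIs per cell (medians 12119 and 18151, against 4236 and 2457.5).

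Proteins that work with these enzymes were compared in the same fit. Of 17 partner subunits, 12 (70.6%) were higher in crypt-like cells, against 16.9% of all genes. Uhrf1, which brings Dnmt1 to replicated DNA, was at 70.9 and 79.1 CPM in crypt-like cells and at 2.996 CPM in mouse 1 and 0 UMIs in mouse 2 in enterocyte-like cells (log2 fold 4.63 ± 0.69). Hells, a chromatin remodeller needed for DNA methylation, was at 247 and 263 CPM against 8.99 and 19.2 CPM (4.18 ± 0.51), and Trmt112, an activator of several RNA and protein methyltransferases, at 311 and 304 CPM against 35.5 and 39.9 CPM (2.81 ± 0.28). Both crypt-like values of these 3 genes exceeded both enterocyte-like values. Among 21 demethylases, which remove such marks, 4 (19.05%) were higher and 2 (9.52%) lower in crypt-like cells, against the 16.9% and 17.4% of all genes: Kdm2b and Kdm1a had log2 folds of 2.03 ± 0.38 and 1.28 ± 0.28, and Kdm7a and Tet3 of -1.70 ± 0.34 and -0.87 ± 0.30. Tet1 had 0 UMIs in the enterocyte-like cells of both mice and 5 in crypt-like cells. Its crypt-like level was 3.61 times a floor of 3 counts over the enterocyte-like group. The counting error of the 5 UMIs is not in this value, so it is not a lower bound.

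SAM is made by Mat2a and its product SAH is removed by Ahcy, whose adenosine is then used by Adk. Of the 10 tested genes of SAM supply and SAH removal (12 listed), Ahcy and Adk were higher in crypt-like cells, by log2 folds of 1.98 ± 0.54 and 1.29 ± 0.44, and the AHCY-like genes Ahcyl1 and Ahcyl2 were lower, by -1.41 ± 0.25 and -2.40 ± 0.31 (edgeR adjusted p between 2.975e-05 and 0.031). Ahcy was at 31.8 and 35.97 CPM in crypt-like and 5.99 and 10.35 CPM in enterocyte-like cells, and Ahcyl2 at 57.9 and 88.1 CPM against 365 and 270.5 CPM. Mat2a, at 155.5 and 169 CPM against 87.8 and 57.7 CPM, did not pass.

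Crypt-like cells were next set against the mean of the 5 leukocyte-like classes, whose Apc alleles Villin-driven Cre does not target. Here 15 members were higher, against 29% of all genes tested, and 10 were lower, against 28.0%. Lysine members went both ways, with 6 of 23 higher and 10 lower, and the other groups gave 9 higher and none lower. A difference between the groups was not tested. The members' median log2 fold was 0.07 and that of all genes -0.15. Suv39h2 had the largest rise, a log2 fold of 5.14 ± 0.49. Its level in the leukocyte-like classes was at most 3.275 CPM in either mouse, with 0 UMIs in B-cell-like cells of both mice. The fold averages log levels over the 5 classes, so the 0 counts enlarge it. Tpmt (4.01 ± 0.34) and Smyd2 (3.26 ± 0.29) followed. The edgeR adjusted p-values of the 3 were at most 4.761e-07. Ehmt1 and Mettl14 each lost the call in 4 of 9 alternative settings.

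Largest among the lower members was Kmt2c, an enhancer H3 lysine 4 methyltransferase, at 26.1 and 5.39 CPM in crypt-like cells and between 37.9 CPM in plasma-cell-like and 206 CPM in T/ILC-like cells (log2 fold -2.63 ± 0.36). Kmt2a was at 28.4 and 26.97 CPM against 53.7 to 356.5 CPM (-2.57 ± 0.27). Setd2, which writes the H3 lysine 36 mark behind RNA polymerase, was at 21.0 and 28.8 CPM against 9.67 to 150 CPM (-1.94 ± 0.22), so plasma-cell-like cells lay below the crypt-like cells on the CPM scale while the other leukocyte-like classes lay above them. The edgeR adjusted p-values of the 3 ran from 8.724e-07 to 1.32e-05. Of 21 demethylases 14 were lower in crypt-like cells, Tet2 (-2.85 ± 0.35), Kdm7a (-2.76 ± 0.29) and Kdm6a (-1.86 ± 0.25) the most. Of 17 partner subunits 12 were higher, led by Hells (4.15 ± 0.28), Uhrf1 (4.13 ± 0.38) and Dpy30 (2.39 ± 0.15), and Zc3h13 was lower (-0.61 ± 0.24). Genes of SAM supply and SAH removal were higher in 6 and lower in 2 of 10, with Ahcy at a log2 fold of 3.40 ± 0.38 (edgeR adjusted p = 1.547e-06). Mtr, which remakes methionine, was among the lower (-1.29 ± 0.42).

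Enterocyte-like cells were set against the same 5 classes. Lower members numbered 25, against 34.6% of all genes tested, and higher members 5, against 29.1%. All 3 DNA members and 17 of 23 lysine members were lower, though Dnmt3a and Dnmt3b did not pass in 6 and 7 of 9 alternative settings. The members had a median log2 fold of -0.83, against -0.33 over all genes. Kmt2a fell furthest, at 10.4 and 13.3 CPM in enterocyte-like cells (log2 fold -3.62 ± 0.30), followed by Dnmt1 (-2.39 ± 0.28) and Kmt2b (-2.15 ± 0.42), another H3 lysine 4 enzyme. Tpmt, at 0.161 to 3.69 CPM in the leukocyte-like classes where it had UMIs, against 35.5 and 28.1 CPM in enterocyte-like cells, was the highest riser (4.97 ± 0.27; edgeR adjusted p = 1.773e-10). Smyd2 (2.27 ± 0.30) and Trdmt1 (1.93 ± 0.34) were also higher, with Kmt5a, which adds the first methyl group to H4 lysine 20, and Ezh2. With mitochondrial UMIs allowed up to 10% the lower members numbered 15, and in a fit without the other classes the higher members numbered 9. Of the demethylases 16 of 21 were lower: Tet2 (-3.24 ± 0.34), Kdm2b (-2.84 ± 0.31) and Tet1, which with 0 UMIs was at least 7.75-fold lower (floor of 3 counts over the group). Partner subunits were higher in 2 of 17 (Dpy30 and Fam103a1) and lower in 5, Trmt112 (-1.99 ± 0.23), Men1 (-1.50 ± 0.37) and Virma (-1.38 ± 0.26) the most. Of SAM supply and SAH removal, Ahcyl2 (3.58 ± 0.19), Ahcyl1 (2.77 ± 0.16) and Ahcy (1.43 ± 0.47) were higher, and Mtr (-2.77 ± 0.49) and Mtrr (-1.23 ± 0.50) were among the lower. The comparisons of crypt-like and enterocyte-like cells share sums, so no overlap between their lists is given.

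Leukocyte-like classes were then compared with each other, each against the mean of the other 4. T/ILC-like cells had 18 higher members, against 24.6% of all genes tested, and 3 lower, against 14.6%. Lysine methyltransferases gave 12 of the 18. The median log2 fold was 0.49 over the members and 0.14 over all genes. DESeq2 size factors moved these medians to 0.36 and 0.02, so the members stood 0.35 and 0.34 above all genes under the 2 scalings. Prmt2, which adds asymmetric dimethylarginine, was at 20.4 and 22.4 CPM in T/ILC-like cells and at 1.37 to 3.69 CPM in the other leukocyte-like classes (log2 fold 2.43 ± 0.31; edgeR adjusted p = 1.223e-05). Smyd3, a lysine methyltransferase of kinases and histones, was at 43.0 and 45.7 CPM against 2.94 to 10.8 CPM (1.96 ± 0.21), and Smyd2 at 14.2 and 16.9 CPM against 0 to 17.9 CPM (1.81 ± 0.30). For Prmt2 and Smyd3 both T/ILC-like values lay above those of every other class, whereas Smyd2 overlapped the dendritic-cell-like values.

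Lower in T/ILC-like cells were Gamt, which completes creatine synthesis, at 0.389 and 0.204 CPM (4 and 3 UMIs; log2 fold -4.07 ± 0.64), Mettl1 (22.4 and 13.8 CPM; -1.81 ± 0.34) and Prmt7 (17.8 and 19.8 CPM; -0.86 ± 0.28). The T/ILC-like count rested on how the class was drawn: it was 10 higher and 5 lower without integration, where the class held 3657 other and 32 cycling cells in mouse 2, and 11 higher with mitochondrial UMIs allowed up to 10%. Prmt2, Smyd3 and Smyd2 were called under each of 8 alternatives, and Setd1b, Ehmt2 and Prmt5 lost the call in 7, 6 and 6 of them. Demethylases were higher in 14 of 21 (66.7%), against 24.6% of all genes, led by Tet1 (2.73 ± 0.36), Kdm5b (1.78 ± 0.26) and Kdm4b (1.11 ± 0.24). Partner subunits were higher in 5 of 17 (29.4%), a share near that of all genes, led by Virma (1.08 ± 0.19), Rbbp5 (1.05 ± 0.15) and Zc3h13 (0.87 ± 0.21). Adk was lower (-2.37 ± 0.35) and Mat2b higher (0.70 ± 0.26).

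**Figure D3:**
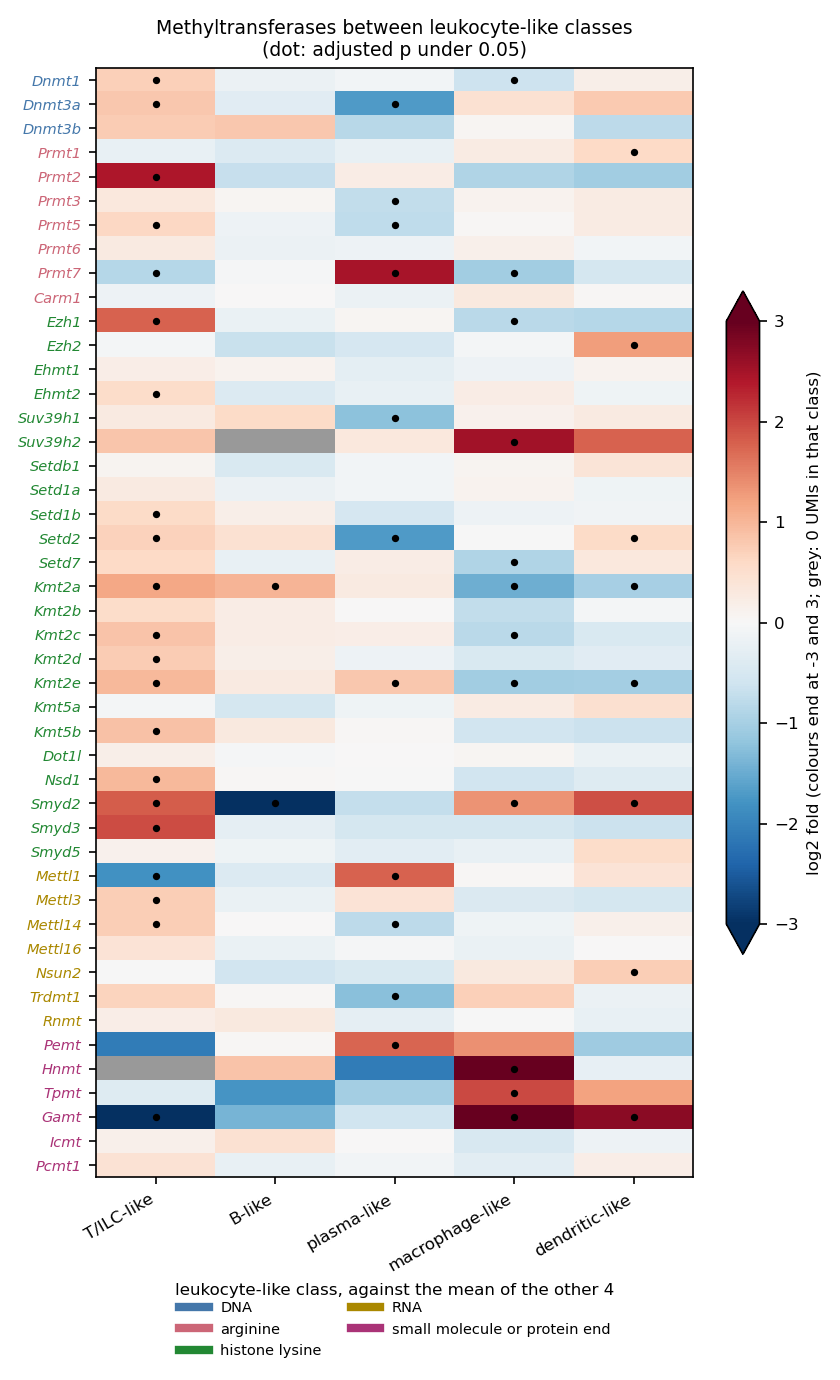
Colour gives the log2 fold of each tested member in 1 leukocyte-like class over the mean of the other 4, dots mark edgeR adjusted p under 0.05, and grey marks classes with 0 UMIs of the gene in both mice. The T/ILC-like column holds 18 dots on higher members, and the B-cell-like column 2 in all.

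B-cell-like cells differed in 2 members, Kmt2a and Smyd2, against 5.61% of all genes higher and 7.79% lower. Kmt2a was at 244 and 271 CPM, below the T/ILC-like values of 356.5 and 335 CPM and above those of the other 3 classes (log2 fold 1.02 ± 0.20; edgeR adjusted p = 0.00289). Smyd2 rested on 1 UMI in mouse 1 and 0 in mouse 2; the other leukocyte-like classes held 18.1 times as much on summed counts, with a counting interval of 3.25 to 715 (edgeR adjusted p = 0.0015). With the mouse as a replicate block a further member was lower, making 2. The all-gene split depended on scaling here, with 708 genes higher and 984 lower under TMM but 957 and 691 under DESeq2 size factors, and the medians of the members (-0.14 and 0.02) and of all genes (-0.27 and -0.09) moved with it. B-cell-like cells of mouse 2 held 321288 UMIs, the fewest of these classes. Plasma cell markers summed to 254200 and 156600 CPM in the B-cell-like sums, so these sums also hold plasma cell RNA. Its part in the calls was not tested. Of the other lists, the demethylases Kdm2a (0.69 ± 0.18) and Tet2 (-0.89 ± 0.28) passed, and no partner subunit or gene of SAM supply did.

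Plasma-cell-like cells had 4 higher and 7 lower members, against 20.5% and 15.3% of all genes. Prmt7 was at 32.3 and 32.1 CPM, above every other leukocyte-like class, where it was at 14.0 to 23.3 CPM, and after TMM scaling its log2 fold was 2.46 ± 0.23 (edgeR adjusted p = 6.418e-07). Mettl1 was at 38.1 and 33.6 CPM, below both dendritic-cell-like values of 46.65 and 66.2 CPM and overlapping the macrophage- or monocyte-like values of 36.1 and 48.9 CPM. Its log2 fold after TMM scaling was 1.78 ± 0.27. Pemt, which makes phosphatidylcholine, was at 0.262 and 0.483 CPM (13 and 6 UMIs; 1.75 ± 0.64) with an edgeR adjusted p of 0.0448, and it did not pass in 5 alternative settings, the replicate block among them (highest adjusted p = 0.169). Lower were Dnmt3a, at 5.28 and 3.30 CPM (-1.71 ± 0.33), Setd2, at 9.67 and 11.8 CPM (-1.71 ± 0.19), and Trdmt1, at 0.564 and 0.483 CPM (-1.25 ± 0.38). Adk was the 1 gene of SAM supply and SAH removal higher in these cells (2.82 ± 0.26) and Mtr the 1 lower (-0.84 ± 0.29), and Men1, a partner of Kmt2a, was the 1 partner subunit (1.29 ± 0.23). Lower partner subunits were Uhrf1 (-2.55 ± 0.60), Hells (-1.55 ± 0.39) and Trmt112 (-0.57 ± 0.20), and among the demethylases 4 were higher and 6 lower, with Tet3 (-2.03 ± 0.23), Kdm6b (-1.99 ± 0.27) and Kdm7a (-1.15 ± 0.23) the lowest.

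Macrophage- or monocyte-like cells had 5 higher members, against 20.6% of all genes, and 3 of them act on small molecules: Hnmt, Gamt and Tpmt. Hnmt, which inactivates histamine, was at 4.75 and 5.16 CPM (18 and 17 UMIs), and the other leukocyte-like classes together held 3 UMIs of it. Its ratio of summed CPM was 156 with a counting interval of 53.4 to 757 (edgeR adjusted p = 0.000157). Gamt was at 16.6 and 16.1 CPM (log2 fold 3.35 ± 0.39), above both dendritic-cell-like values of 14.8 and 8.52 CPM, with at most 1.13 CPM in T/ILC-, B- and plasma-cell-like cells. Suv39h2 was at 2.11 and 3.04 CPM (8 and 10 UMIs; 2.52 ± 0.73) and did not pass with the highest doublet scores removed (edgeR adjusted p = 0.0716). Its dendritic-cell-like values of 0.927 and 3.275 CPM overlapped these, and B-cell-like cells had 0 UMIs of it in both mice, which enlarges the fold. Of the 7 lower members, against 11.2% of all genes, Kmt2a (73.1 and 61.0 CPM; -1.46 ± 0.23), Kmt2e (117 and 122 CPM; -1.03 ± 0.21) and Prmt7 (14.5 and 14.0 CPM; -1.03 ± 0.30) changed most. With the mouse as a replicate block 11 members were lower, and with the highest doublet scores removed 3 were higher. Demethylases were split, 4 higher and 4 lower, with Kdm6b (1.84 ± 0.21) and Kdm7a (1.64 ± 0.19) the highest. Mtr (1.01 ± 0.27) and the partner subunit Clns1a (0.71 ± 0.22) were higher and Adk (-1.20 ± 0.35) lower.

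Dendritic-cell-like cells had 6 higher and 2 lower members, against 14.8% and 7.48% of all genes. Gamt (14.8 and 8.52 CPM; log2 fold 2.70 ± 0.42), Smyd2 (17.9 and 9.83 CPM; 1.92 ± 0.35) and Ezh2 (55 CPM in both mice; 1.26 ± 0.20) were the highest, and Kmt2e (-1.01 ± 0.21) and Kmt2a (-0.99 ± 0.23) were lower. With the mouse as a replicate block 4 members were lower. Markers of division were measured beside these values: 1 of the dendritic-cell-like clusters counted 11 of 16 transit-amplifying markers, and Mki67 was at 57.2 and 39.3 CPM in the class. In macrophage- or monocyte-like cells 1 cluster counted 7 of 16 of these markers. Mki67 was at 38.2 and 42.5 CPM in that class, which overlaps the dendritic-cell-like values, and Ezh2 at 21.1 and 28.5 CPM. Uhrf1 (2.90 ± 0.44) and Hells (1.52 ± 0.34) were the 2 partner subunits higher in dendritic-cell-like cells. Of the demethylases 1 was higher and 5 lower there, Kdm3a (-1.15 ± 0.22) the most. The part of dividing cells in these values was not tested.

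**Figure D4:**
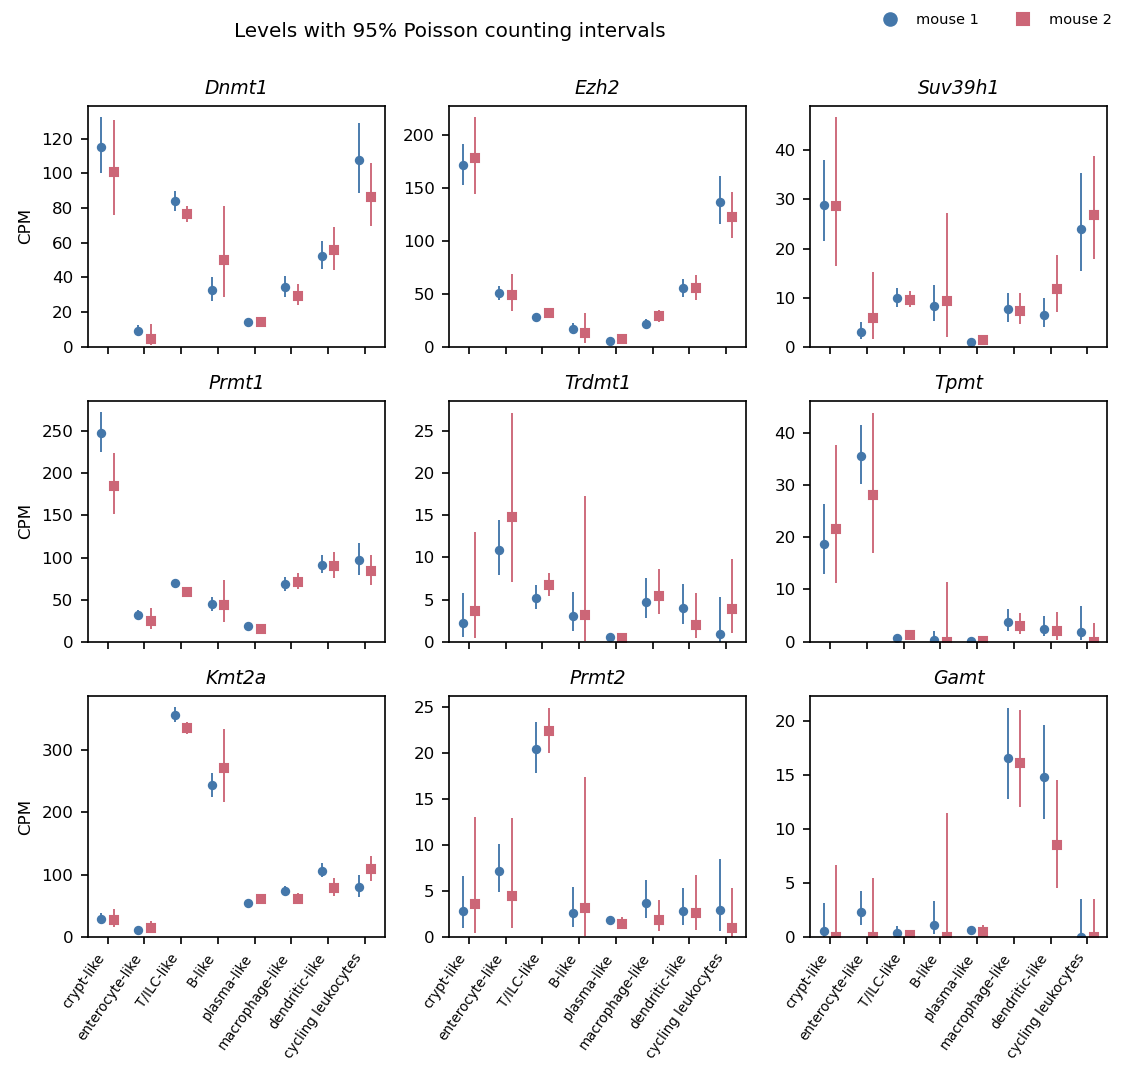
CPM of 9 members in each class (y axes start at 0), with circles for mouse 1, squares for mouse 2 and bars for 95% Poisson intervals, which cover counting error only. Dnmt1, Ezh2, Suv39h1 and Prmt1 are highest in crypt-like cells, Tpmt in enterocyte-like cells at 35.5 and 28.1 CPM, Kmt2a and Prmt2 in T/ILC-like cells and Gamt in macrophage-like cells.

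As most crypt-like cells held UMIs of cycling genes, the same members were then measured between dividing and other leukocytes. The split planned for this, T/ILC-like cells with at least 3 UMIs of 15 cycling genes, left 15 and 32 cells in the 2 mice, with 52 and 96 more at 2 UMIs. No member of the 44 tested passed with edgeR, against 0.195% of all genes higher and 0.00812% lower, and 11 members had an unadjusted p under 0.05 (1156 of 12320 genes). The partner subunit Hells passed (log2 fold 2.79 ± 0.54; edgeR adjusted p = 0.0353). DESeq2 called 2 members higher, and edgeR with DESeq2 size factors 1. This was below the 20 cells per mouse set for a class, so a cluster of leukocytes with all 16 transit-amplifying markers (40 and 44 cells, Ptprc in 95.2% of them) was compared with the mean of the 5 leukocyte-like classes as an alternative chosen after seeing the data.

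In that cluster 8 of 44 members were higher, against 13.1% of all genes, and 3 were lower, against 6.82%. Suv39h2 was at 9.59 and 4.80 CPM (10 and 5 UMIs; log2 fold 3.88 ± 0.68), Ezh2 at 137 and 123 CPM (2.72 ± 0.18) and Suv39h1 at 24.0 and 26.9 CPM (2.23 ± 0.27). Each of these values lay above those of all 5 leukocyte-like classes. Suv39h2 had 0 UMIs in B-cell-like cells of both mice, which enlarges its fold. The next was Dnmt1, at 107.5 and 86.4 CPM (1.46 ± 0.20; edgeR adjusted p = 5.616e-05). Kmt5a, Prmt7, Prmt1 and Pcmt1 had log2 folds of 1.22 ± 0.20, 1.07 ± 0.33, 0.94 ± 0.20 and 0.76 ± 0.23. Setd2 (-1.59 ± 0.22), Kmt2d (-0.88 ± 0.26) and Kmt5b (-0.81 ± 0.27) were lower, Setd2 at 19.2 and 24.97 CPM. Prmt7, at 58.5 and 23.05 CPM in the cluster, was also higher in plasma-cell-like cells, and Setd2 was also lower there. Partner subunits were higher in 4 of 17, Uhrf1 (3.63 ± 0.43), Hells (2.84 ± 0.31) and Suz12 (1.17 ± 0.17) the most, and demethylases were lower in 7 of 21, Kdm7a (-2.58 ± 0.32) and Kdm6b (-2.07 ± 0.37) among them; Kdm4b had 2 UMIs in the cluster, and the leukocyte-like classes held 7.05 times as much (counting interval 1.95 to 58.2).

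The crypt and enterocyte sums and the cycling cluster and leukocyte sums hold different cells. Of 44 members tested in both comparisons, 19 were higher in crypt-like over enterocyte-like cells, 8 in the cycling cluster and 6 in both: Dnmt1, Prmt1, Prmt7, Ezh2, Suv39h1 and Suv39h2. These 6 were 31.6% of the 19 and 75% of the 8. Over all 12173 genes the counts were 2118, 1575 and 706, which is 33.3% and 44.8%. The 13 members higher in crypt-like cells alone had log2 folds in the cycling cluster from -0.50 ± 0.27 (Ehmt1) to 0.87 ± 0.50 (Smyd2), none past the threshold. The nearest to it was Mettl1 (0.86 ± 0.30; edgeR adjusted p = 0.0527). Prmt5 was at 57.3 and 53.95 CPM in crypt-like cells and at 9.59 and 11.5 CPM in the cycling cluster, and Nsun2 at 119.7 and 102.5 CPM and at 33.6 and 35.5 CPM. These 2 sets of levels did not overlap, and the difference between the comparisons was not tested. Plasma cell markers summed to 281700 and 242800 CPM in the cycling cluster, which lowers the CPM of other genes there. T/ILC markers summed to 1747 and 4762 CPM in it. The cluster thus mixes cell types and can differ from the mean of the leukocyte-like classes in make-up as well as in division. The part of each in its calls, Prmt7 and Setd2 among them, was not tested.

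**Figure D5:**
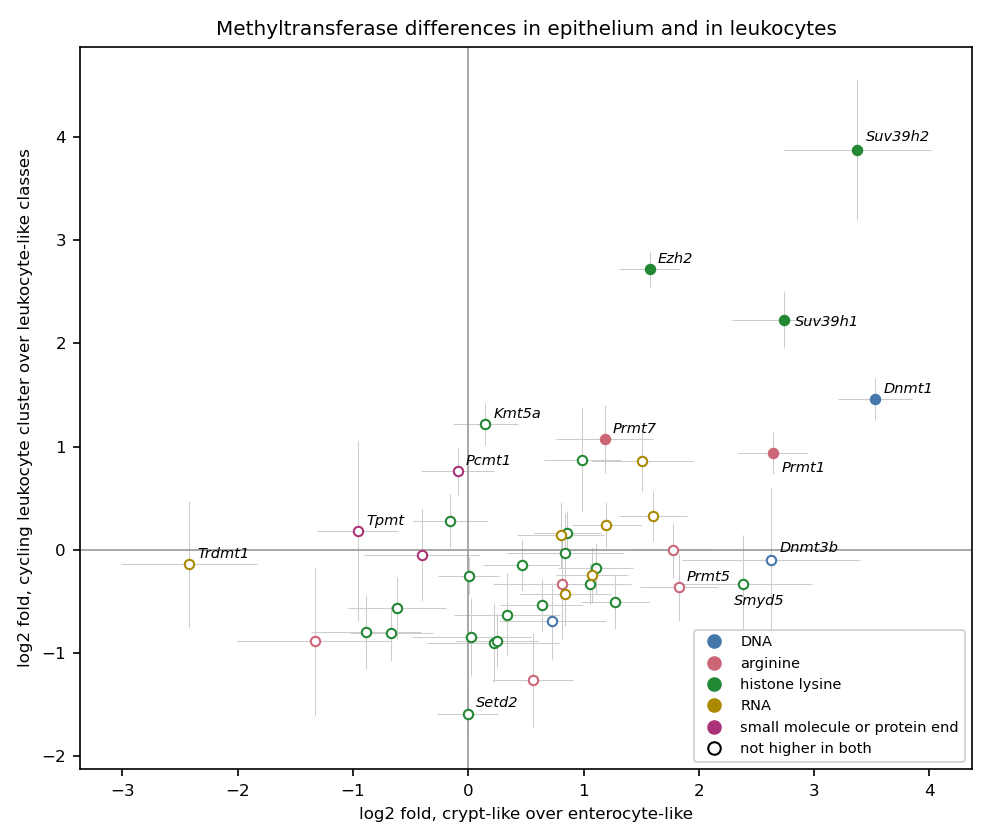
Each point is a member with UMIs in both comparisons, placed by its log2 fold in crypt-like over enterocyte-like cells (x axis) and in the cycling leukocyte cluster over the leukocyte-like classes (y axis), with standard errors in grey. The 6 filled points passed as higher in both comparisons; Smyd5, Dnmt3b and Prmt5 lie to the right near the horizontal line.

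Summed over the 23 lysine members, levels were 2349 and 2400 CPM in T/ILC-like, 1234 and 1510 CPM in B-cell-like, 1105 and 1228 CPM in dendritic-cell-like, 1020 and 1021 CPM in crypt-like, 942 and 920 CPM in macrophage- or monocyte-like, 628 and 557 CPM in enterocyte-like and 403 and 449 CPM in plasma-cell-like cells. Neighbours in this order did not overlap, though B-cell-like and dendritic-cell-like cells came as close as 1234 and 1228 CPM. The 7 arginine members summed to 410 and 347 CPM in crypt-like cells and at most 192 CPM in any other of these classes.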

How the data were processed

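Single cells of 2 APC mice were sequenced, 1 library per mouse. The authors deposited UMI counts per gene and cell barcode, made with Cell Ranger 6.1.2 on mm10 per the labels' processing notes; the annotation release is not given in the sources used here. UMIs are counted once per molecule, so counting intervals (exact Poisson, 95%) cover counting error only. Libraries held 85670711 and 38716743 UMIs in 9645 and 8800 barcodes.

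Cells with over 100 genes, over 400 UMIs, mitochondrial UMIs under 5% and haemoglobin UMIs under 10% were integrated across libraries. They were clustered at resolution 0.8 (Seurat 5.3.0, R 4.3.3). The members, partner subunits, demethylases, genes of SAM supply and SAH removal, and Apc were left out of the clustering. Marker genes and the 15 cycling genes were not left out, so their levels are not independent of how the classes were drawn. Clusters were named from marker lists, so a class here need not match one in the study. Scrublet (scanpy 1.11.5) marked 1 and 0 cells as doublets, which shows that it did not work here, so doublets were kept and the 8% of cells with the highest scores were removed as an alternative. Counts were summed per mouse and class (18 sums of 9 classes that had 20 or more cells in both mice) and fitted together with edgeR 4.0.16 (quasi-likelihood test, TMM, default filter on low counts), with p-values adjusted by Benjamini-Hochberg over all genes tested and a threshold of 0.05. Folds are log2 with standard errors. Of the sums compared, B-cell-like cells of mouse 2 held the fewest UMIs (321288), followed by crypt-like cells of mouse 2 (556073). Tuft-like (56267 and 44376) and mixed secretory sums were in the fit but in no comparison. The labels number the libraries as replicates, so p-values measure the spread between 2 mice only. Single-mouse ratios have no test. For crypt-like over enterocyte-like cells alone, the test was also run on simulated counts. These were drawn without a shared effect of the mouse, so they do not cover the pairing of sums described below.

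Sums with one number come from the same mouse. The deviations of their classes correlated by 0.0535 to 0.624 over 36 class pairs (median 0.184, 29 over 0.1), and the mouse as a replicate block was 1 alternative fit, with DESeq2 1.42.0, its size factors, no filter on low counts, the compared classes alone, no integration, resolution 1.2, mitochondrial UMIs under 10% and single mice. Named genes were those called in the first comparison and, in each other comparison, up to 3 called members or list genes in each direction by size of fold among those changed the same way in both mice, and Ahcy, with others named for context after their values were seen. The 47 members and all gene lists were chosen with earlier results of these data known. Exons of Prmt2, Prmt3, Ehmt1 and Setd1a overlap another gene on the same strand in the reference annotation, so their counts are uncertain. Promoter windows came from RefSeq for 38 members. The values of 1 gene of the SAM supply list are not reported here.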

Additional observations from a re-analysis of the deposited data

Results flagged for a closer look

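Barcodes left out by the filters on cells also held UMIs of the members, a signal in data that no comparison used. In mouse 1, 1704 removed barcodes with 4610066 UMIs held the members at 1076.1 CPM in all, against 1095 CPM in the kept cells. In mouse 2, 1843 removed barcodes with 3242483 UMIs held them at 2605.4 CPM, against 1855.6 CPM in the kept cells. Mitochondrial UMIs made up at least 5% in 1412 and 1810 of the removed barcodes. Each value was above the limit that a count of 0 allows, there was no control library, and 45 members had a UMI among the removed barcodes of each mouse. These values were not tested.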

How the results depend on the processing

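Among called members no value from a tested alternative reversed. Values that no longer passed numbered 13 of 189 for crypt-like over enterocyte-like cells, 8 of 223 for crypt-like over leukocyte-like, 44 of 270 for enterocyte-like over leukocyte-like, 30 of 168 for T/ILC-like, 0 of 16 for B-cell-like, 8 of 87 for plasma-cell-like, 8 of 95 for macrophage- or monocyte-like, 4 of 64 for dendritic-cell-like cells and 3 of 77 for the cycling cluster.

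Counts of called members moved by over 1.5 times as follows, and the cause was not tested. DESeq2 gave 5 lower in the cycling cluster (3 in the report), 3 higher in B-cell-like cells (1) and 2 higher in cycling T/ILC-like cells (0), and its size factors in edgeR gave 2 higher in B-cell-like and 1 higher in cycling T/ILC-like cells. The replicate block gave 2 lower in B-cell-like (1), 11 lower in macrophage- or monocyte-like (7) and 4 lower in dendritic-cell-like cells (2), and moved no other count by over 1.5 times. With the compared classes alone, 1 was lower in crypt-like than enterocyte-like cells (2), 9 were higher in enterocyte-like than leukocyte-like cells (5) and 7 lower in the cycling cluster (3). Without integration, T/ILC-like cells had 10 higher (18) and 5 lower (3). Resolution 1.2 gave 7 lower in the cycling cluster (3). With mitochondrial UMIs under 10%, 15 were lower in enterocyte-like than leukocyte-like cells (25), 11 higher in T/ILC-like (18) and 2 higher in B-cell-like cells (1). With the highest doublet scores removed, 4 were lower in crypt-like than enterocyte-like cells (2), 3 higher in B-cell-like (1) and 3 higher in macrophage- or monocyte-like cells (5). These last 2 settings gave no cycling leukocyte cluster.

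In single mice, with no test, the median log2 fold of the members ran from 0.7227 to 0.8450 for crypt-like over enterocyte-like cells, -0.0876 to 0.4469 for crypt-like over leukocyte-like, -0.9840 to -0.8716 for enterocyte-like over leukocyte-like, 0.42 to 0.54 for T/ILC-like, -0.4834 to 0.0255 for B-cell-like, -0.1516 to -0.1037 for plasma-cell-like, -0.1521 to 0.0510 for macrophage- or monocyte-like, -0.0208 to 0.0093 for dendritic-cell-like, -0.4988 to -0.3979 for cycling T/ILC-like cells and -0.1384 to -0.1382 for the cycling cluster. The sign of the median therefore rested on 1 mouse for crypt-like over leukocyte-like, B-cell-like, macrophage- or monocyte-like and dendritic-cell-like cells. With 2 mice and 29 crypt-like cells in mouse 2, members with few UMIs have wide errors.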

Other observations

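Tuft-like cells (28 and 21 cells) entered no comparison, since their sums held 56267 and 44376 UMIs. Their 23 lysine members summed to 2595 and 2682 CPM, from 146 and 119 UMIs, against 2349 and 2400 CPM in T/ILC-like cells. Their arginine members summed to 231 and 338 CPM, from 13 and 15 UMIs. The mixed secretory cells (33 in each mouse) differed between the mice, with lysine members at 794 and 1488 CPM and DNA members at 59.3 and 164 CPM. Nnmt, which methylates nicotinamide, had 2 UMIs over all kept cells, and no level is given for it.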
